A study of Mus musculus with 27 samples.

Results

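UVB light on the skullcap was followed by transcript changes in the bone and in the meninges beneath it, and the measurements below concern the genes whose 24 h change was not equal in the 2 tissues. The members are 12 of the 27 mouse libraries of the series: 3 each of untreated skull, skull 24 h after irradiation, untreated meninges and meninges 24 h after irradiation. For every gene, the change in meninges (24 h against untreated meninges) was subtracted from the change in skull (24 h against untreated skull), so that a positive difference means a more positive change in skull. Of 18879 genes tested, 33 had a difference with an adjusted p under 0.05 in the edgeR quasi-likelihood test (0.175%), 18 with a more positive change in skull (0.0953%) and 15 with a more negative one (0.0795%). Of these 33 genes, 32 are described one by one.

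The treated mice had received UVB of 311 nm at 2 mW on the interparietal bone, the plate at the back of the skull roof, and tissue was taken 24 h later. The controls are labelled as not treated with UVB. The strain, age, genotype, sham handling and hour of collection of the groups are not given in the labels, and nothing there says that the 3 libraries of a group come from separate mice, so the p-values measure the spread between these libraries. Skullcaps had been rinsed of blood and the meninges scraped off them before poly(A) RNA was sequenced, to 15.5 M to 18.2 M counts per library.

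The skullcap is bone with marrow between its plates, so a skull library mixes bone-forming, stromal, vascular and blood-forming cells. The meninges are the membranes between skull and brain, built of fibroblast layers with vessels, lymphatics and resident macrophages. In such bulk tissue, fewer cells of a type and less RNA per cell cannot be told apart. The tissue labels were checked against marker lists: osteoblast and osteocyte genes summed to 126010 to 214919 CPM (counts scaled to each library's TMM-adjusted total) in untreated skull and to 44926 to 79031 in untreated meninges, while meningeal fibroblast genes summed to 1196 to 1920 and to 5254 to 6351. Collagen genes (25 measured) summed to 134878 to 226154 CPM in untreated skull and 44868 to 78458 CPM in untreated meninges. These sums were close to those of the osteoblast and osteocyte list, and whether bone gave the meninges sum was not tested. The scraped membranes also held pineal genes (3026 to 3607 CPM in untreated meninges, against 70.7 to 94.1 in untreated skull). Skeletal muscle genes reached 7630 CPM in meninges control 2 and 31.4 to 159 CPM in the other 5 meninges libraries. Choroid plexus genes, markers of the tissue that secretes cerebrospinal fluid, summed to 525, 7450 and 9350 CPM in meninges controls 1 to 3 and to 19000, 598 and 5770 CPM at 24 h, against 372 to 468 CPM in the skull libraries. Of these 16 genes, 0 were called for the difference, with a median of −1.22.

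The 33 genes were a small fraction of those that moved. In the same fit 3246 genes changed in skull (17.2%) and 1385 in meninges (7.34%), and 1860 genes had an unadjusted p under 0.05 for the difference. The median difference over all genes tested was −0.01 on the log2 scale, and the median standard error of a difference was 0.28, against 0.20 for the change within either tissue. The smallest called difference was 0.69, and differences of up to 2.86 among the genes just past the threshold were not called.

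**Figure D1:**
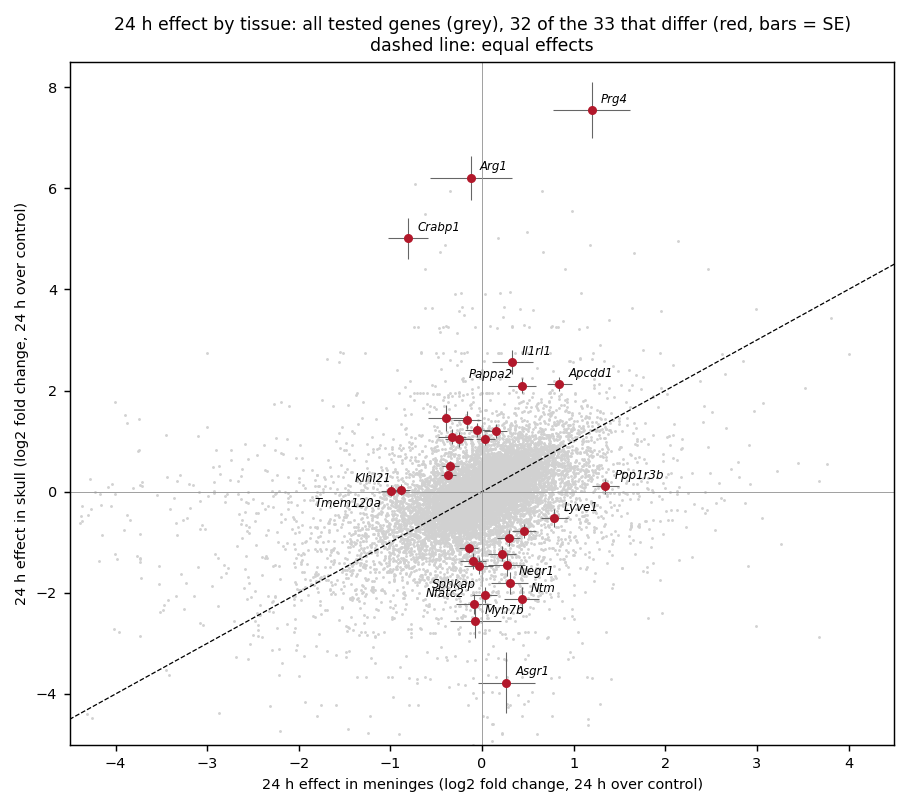
Log2 change at 24 h in meninges (x axis) and skull (y axis) for all genes tested (grey) and for 32 of the 33 genes whose changes differ (red, bars are standard errors), with a dashed line where the changes are equal; 92 genes lie outside the axes. Most red points spread along the y axis near a meninges change of 0, and Tmem120a, Klhl21 and Ppp1r3b lie along the x axis.

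The genes were sorted by which changes within each tissue passed the threshold. A missing call does not show that a tissue was unchanged. Skull rose and meninges passed no threshold for 12 genes, and skull fell and meninges passed none for 13. Skull rose while meninges fell for 3 genes (Crabp1, Nsf and Gm49759), and both rose for 1, Apcdd1. Meninges fell with no call in skull for Tmem120a and Klhl21, and rose with no call in skull for Ppp1r3b and Lyve1. In all, 29 of the 33 passed the test in skull (17.2% of all genes), 8 in meninges (7.34%) and 4 in both; these shares use the contrast that chose the genes and are a description. The skull change was the larger for 28 genes and the meninges change for 5. The 2 fitted changes had opposite signs for 21. Libraries of untreated and irradiated skull did not overlap for 30 of the genes (35.8% of all genes tested), and those of meninges did not for 15 (27.7%).

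Some of the genes span the gene of a microRNA. A330023F24Rik is a non-coding transcript that hosts 2 microRNAs of the miR-29 family on chromosome 1, and Myh7b, a slow muscle myosin, hosts miR-499 on chromosome 2. MicroRNAs are short RNAs that repress messages through pairing of their seed, bases 2 to 8. Both host transcripts fell in skull, and mature microRNAs were not measured in these poly(A) libraries. The mature sequences show what the hosts encode besides their own RNA; they are from RefSeq (GRCm38.p6), 5′ to 3′, with the seed in capitals.
miR-29b-3p: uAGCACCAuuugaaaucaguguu
miR-29c-3p: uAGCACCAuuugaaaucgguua
miR-499-5p: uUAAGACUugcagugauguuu
The 2 miR-29 sequences share the seed AGCACCA, and miR-499-5p has UAAGACU. Tmem120a also spans the gene of a less studied microRNA, Mir7034.

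Promoter sequence, from 250 bases before to 50 after the start of the RefSeq transcript, was matched for 23 of the 33 genes. One example is printed for each of 3 patterns: Crabp1 (skull rose and meninges fell, chr9:54764498-54764797, plus strand), Nfatc2 (skull fell, chr2:168601608-168601907, minus strand, the first of 2 entries) and Klhl21 (meninges fell, chr4:152008641-152008940, plus strand). Capitals mark matches to an AP-1 motif (TGANTCA) or a TATA box (TATAAA) on either strand, in GRCm38.p6.
Crabp1: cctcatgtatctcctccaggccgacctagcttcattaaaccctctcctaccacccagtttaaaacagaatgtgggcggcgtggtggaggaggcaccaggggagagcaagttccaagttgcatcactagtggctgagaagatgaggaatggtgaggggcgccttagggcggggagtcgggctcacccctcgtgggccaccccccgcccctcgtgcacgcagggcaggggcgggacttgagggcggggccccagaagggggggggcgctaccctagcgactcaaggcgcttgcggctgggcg
Nfatc2: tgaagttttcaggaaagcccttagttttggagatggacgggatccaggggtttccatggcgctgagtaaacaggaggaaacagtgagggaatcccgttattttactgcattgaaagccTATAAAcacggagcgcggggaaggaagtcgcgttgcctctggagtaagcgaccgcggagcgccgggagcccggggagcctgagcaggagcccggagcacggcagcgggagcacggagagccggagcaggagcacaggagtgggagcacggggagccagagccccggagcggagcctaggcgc
Klhl21: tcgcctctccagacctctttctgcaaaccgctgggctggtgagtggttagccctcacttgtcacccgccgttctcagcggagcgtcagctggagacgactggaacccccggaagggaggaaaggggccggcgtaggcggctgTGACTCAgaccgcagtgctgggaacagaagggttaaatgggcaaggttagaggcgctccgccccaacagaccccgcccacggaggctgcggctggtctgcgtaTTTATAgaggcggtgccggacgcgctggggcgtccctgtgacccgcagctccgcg
The Crabp1 window held neither motif. The Nfatc2 window held the letters TATAAA at −132 to −127 from the start. The Klhl21 window held an AP-1 match at −108 to −102 and the letters TATAAA on the other strand at −5 to 1. Over the 23 windows, TGANTCA was in 2 (8.7%, against 5.58% of 13032 tested genes with a promoter) and TATAAA in 5 (21.7%, against 8.04%). The letters TTCNNNGAA, which STAT factors bind, were in 3 (13%, against 6.91%), the NFAT core GGAAAA in 5 (21.7%, against 21.3%) and the E-box CACGTG in 4 (17.4%, against 9.42%). These are matches of letters on both strands, and no factor's binding was measured.

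Several of the genes encode secreted, surface or matrix proteins. Prg4 encodes lubricin, the lubricant of joint surfaces and tendon sheaths. It stood at 3.35, 11.8 and 4.64 CPM in the 3 untreated skull libraries and at 1251, 887 and 1582 CPM 24 h after UVB. In meninges it stood at 39.7, 27.2 and 35.8 CPM in controls and 52.1, 87.6 and 95.3 CPM at 24 h. Neither tissue's groups overlapped, and the order of the tissues turned: untreated meninges held 5.18 times the level of untreated skull, and irradiated skull 15.8 times that of irradiated meninges. The mean CPM rose 188 times in skull. The log2 change was 7.54 ± 0.55 (SE, n = 3 and 3 libraries) in skull and 1.19 ± 0.42 in meninges, which was not called (adjusted p = 0.126). The difference was 6.35 ± 0.64 (adjusted p = 0.00906; chromosome 1, 150449412 to 150466165, minus strand of GRCm38). Of its 4280 exon bases, 204 are shared with Tpr on the opposite strand, and the strand setting of the counting is unknown.

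Prg4 was the 1 called gene among 15 measured cartilage genes (median difference −0.17, against −0.01 over all genes). The summed level of that list, Prg4 included, was 2512 to 5242 CPM in untreated and 4084 to 5023 CPM in irradiated skull, and none of its genes was at 0 in either tissue. Its part in the result was not tested.

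Pappa2 is a protease that cleaves binding proteins of insulin-like growth factors. Its untreated levels overlapped between the tissues, at 18.5, 19.6 and 19.7 CPM in skull and 21, 17.4 and 14.7 CPM in meninges. At 24 h it stood at 90.3, 65.7 and 91.5 CPM in skull and 20.6, 25.7 and 25.3 CPM in meninges. Skull rose 4.28 times, the meninges groups overlapped, and the difference was 1.67 ± 0.22 (adjusted p = 0.00906; chromosome 1, 158711727 to 158980490, minus strand). It shares 310 of 10294 exon bases with 1600012P17Rik on the same strand.

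Apcdd1, a membrane protein that damps Wnt signalling, was the gene called upward in both tissues. Untreated libraries held 19, 18 and 20.6 CPM in skull and 19.4, 17.8 and 21.4 CPM in meninges. At 24 h the values were 89.1, 81.8 and 81.4 CPM in skull and 26.9, 39.3 and 39 CPM in meninges. The untreated tissues overlapped, and at 24 h neither tissue overlapped its controls. The log2 rise was 2.13 ± 0.14 in skull and 0.84 ± 0.14 in meninges (adjusted p = 0.0027), a difference of 1.29 ± 0.19 (adjusted p = 0.0201; chromosome 18, 62922231 to 62961179, plus strand).

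Tgfbi, a matrix adhesion protein induced by TGF-beta, stood at 166, 203 and 174 CPM in untreated skull and 368, 322 and 425 CPM at 24 h. In meninges it stayed between 231 and 250.1 CPM in all 6 libraries. The difference was 1.0 ± 0.15 (adjusted p = 0.0201; chromosome 13, 56609523 to 56639562, plus strand). Pdpn, a surface mucin of young osteocytes, lymphatic endothelium and several stromal cells, went from 23.5, 22.2 and 24.8 CPM to 56.3, 41.7 and 65.6 CPM in skull and overlapped in meninges at 63.2 to 78.5 and 65.4 to 68.9 CPM, a difference of 1.27 ± 0.20 (adjusted p = 0.0209; chromosome 4, 143267431 to 143299564, minus strand). Over all 18879 genes tested, 3246 were called in skull in either direction (17.2%), and 1630 of these fell. Pdpn was the 1 gene called for the difference of 29 osteoblast and osteocyte genes. Their median difference was 0.37, with 9 members risen and 3 fallen in skull. That list summed to 128881 to 160845 CPM in irradiated skull, within the untreated range, and to 28618 to 57692 CPM in irradiated meninges, and its part in the result was not tested.

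The fit was repeated without each of the 12 libraries in turn, each named here by its tissue, group and number. Prg4 and Pappa2 kept their calls in all of these fits (adjusted p up to 0.0387 and 0.0389). Both lost them in the fits with a block for the replicate number (adjusted p up to 0.0801 and 0.079). Apcdd1 lost its call without meninges control 1, skull 24 h 1 or skull control 2 (adjusted p up to 0.0646). Tgfbi lost its call without meninges 24 h 1 or 3, meninges control 1 or skull 24 h 1 (adjusted p up to 0.0612). Pdpn lost its call without meninges 24 h 1 or 3, meninges control 1, skull 24 h 1 or skull control 2 (adjusted p up to 0.0754).

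Arg1, Il1rl1 and Slco2a1 are described next, a grouping made once their values had been seen. Arg1, the arginase that breaks down arginine and marks one state of activated macrophages, stood at 0.322, 0.564 and 0.442 CPM in untreated skull. At 24 h it stood at 25.4, 21.5 and 53.1 CPM. Meninges held 0.669, 0.813 and 0.92 CPM untreated and 0.434, 0.752 and 1.04 CPM at 24 h. Every irradiated skull library was far above the rest, and skull 24 h 3 was the highest. Untreated skull held 20 counts of Arg1 over its 3 libraries. Arg1 rose 75.4 times in skull, with a log2 difference of 6.33 ± 0.62 (adjusted p = 0.0015; chromosome 10, 24915221 to 24927484, minus strand). Among 16 macrophage repair genes it was the 1 called (median difference 0.20); that list summed to 5320 to 6633 CPM in untreated skull and 6158 to 6903 CPM at 24 h, and none of its genes was at 0. Border macrophage markers summed to 1250 to 1529 CPM in untreated skull and 1130 to 1312 CPM at 24 h.

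Il1rl1 encodes the receptor for the alarm cytokine interleukin 33, carried by mast cells, regulatory T cells and innate lymphoid cells. Its levels were 5.48, 6.64 and 7.44 CPM in untreated skull and 34.7, 35.4 and 45.6 CPM at 24 h. Meninges held 18, 17.5 and 10.1 CPM and 14.7, 20.2 and 22.4 CPM, and these groups overlapped. The difference was 2.24 ± 0.32 (adjusted p = 0.0201; chromosome 1, 40429570 to 40465415, plus strand). Of 13 mast cell and basophil genes, 0 rose in skull and 2 fell, and the list summed to 165 to 292 CPM untreated and 107 to 150 CPM at 24 h. T and NK cell genes summed to 134 to 247 CPM untreated and 157 to 168 CPM at 24 h in skull.

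Slco2a1, the carrier that takes prostaglandins into cells, went from 16.7, 21.1 and 19.1 CPM to 44.9, 36.5 and 49.1 CPM in skull, while meninges overlapped at 63.7 to 74 and 64.6 to 83.1 CPM. Its difference was 1.05 ± 0.19 (adjusted p = 0.0461; chromosome 9, 102988712 to 103096002, plus strand), the closest to the threshold of the 33, and it was the 1 called of 26 prostaglandin and leukotriene genes (median difference 0.05). Arg1 kept its call whichever library was left out (adjusted p up to 0.0102), but not in limma-voom (adjusted p = 0.27). Il1rl1 lost its call without meninges control 1 or skull control 2 (adjusted p up to 0.0595). Slco2a1 lost its call in 11 of the 12 fits with 1 library left out, all but those without skull 24 h 2 (adjusted p up to 0.14).

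Crabp1, a cytosolic carrier of retinoic acid, moved in opposite directions. Untreated skull held 0.129, 0.188 and 0.147 CPM and irradiated skull 7, 5.37 and 3.28 CPM. Untreated meninges held 39.1, 43.1 and 53.8 CPM and irradiated meninges 19.7, 29.1 and 29 CPM. No groups overlapped in either tissue. The transcript was 293 times as abundant in untreated meninges as in untreated skull and 4.97 times at 24 h. Untreated skull held 7 counts over its 3 libraries, which gives the untreated ratio an exact Clopper-Pearson 95% interval of 142 to 730.4 (counting error only). Irradiated skull held 245 counts, 33.9 times the untreated level (16.2 to 85.1). Skull rose by 5.01 ± 0.41 and meninges changed by −0.81 ± 0.22 (adjusted p = 0.0452), a difference of 5.81 ± 0.48 (adjusted p = 0.000429), with the smallest p of the 33 (chromosome 9, 54764748 to 54773110, plus strand). Crabp1 kept its call whichever library was left out (adjusted p up to 0.00487).

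Crabp1 was the 1 called of 18 retinoid genes, whose median difference was −0.36. That list summed to 901 to 6077 CPM in untreated and 818 to 12659 CPM in irradiated meninges, high in the libraries where choroid plexus genes were high, and to 496 to 577 and 429 to 487 CPM in skull. Meningeal fibroblast genes, the markers of the tissue where Crabp1 was high, summed to 1196 to 1920 CPM in untreated skull and 1246 to 1498 CPM at 24 h. The same list summed to 5254 to 6351 CPM in untreated meninges and 5651 to 6504 CPM at 24 h. The part of these lists in the result for Crabp1 was not tested.

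Nsf, the ATPase that takes apart SNARE complexes after vesicle fusion, also moved in opposite directions, by little and with tight groups. It went from 74.1, 64 and 63.9 CPM to 83.8, 85.1 and 83.8 CPM in skull and from 216, 213 and 241 CPM to 168, 181 and 171 CPM in meninges. Its log2 change was 0.32 ± 0.08 in skull (adjusted p = 0.0166) and −0.37 ± 0.08 in meninges (adjusted p = 0.016), a difference of 0.69 ± 0.11 (adjusted p = 0.0307; chromosome 11, 103821782 to 103954056, minus strand). Gm49759, a gene model without a named product inside the Pkm locus, went from 36.9, 36.5 and 43.3 CPM to 54.9, 54.5 and 57 CPM in skull and from 50.7, 46.6 and 51.3 CPM to 36.6, 42 and 38.4 CPM in meninges (difference 0.86 ± 0.13, adjusted p = 0.0209; chromosome 9, 59672814 to 59676700, plus strand). It shares 767 of 3887 exon bases with Pkm on the same strand, so counts of the pair could have been split either way. Nsf lost its call in 11 of the 12 fits with 1 library left out, all but those without skull control 1 (adjusted p up to 0.0963). Gm49759 lost its call without meninges 24 h 1 or 3, meninges control 1, skull 24 h 1 or 3 or skull control 2 (adjusted p up to 0.0735).

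The remaining genes that rose in skull were Nes, Chn1, Inka2 and Cngb1. Nes, the intermediate filament nestin of stem, stromal and growing vascular cells, stood at 25.7, 19.8 and 22.6 CPM in untreated skull and 47.9, 34.8 and 56.4 CPM at 24 h. Meninges held 47.6, 56.2 and 47.1 CPM and 40.2, 43.9 and 42.3 CPM. Skull approached the meningeal level, with 2.22 times more in meninges before and near equal means at 24 h, and the difference was 1.29 ± 0.22 (adjusted p = 0.0361; chromosome 3, 87971078 to 87980451, plus strand). Chn1, a chimaerin that switches off the GTPase Rac, went from 8.95, 7.58 and 10.3 CPM to 17.3, 23 and 16.8 CPM in skull and from 18.6, 17.1 and 18.8 CPM to 14.7, 13.9 and 14.9 CPM in meninges, the latter not called (adjusted p = 0.225). Its difference was 1.42 ± 0.22 (adjusted p = 0.0209; chromosome 2, 73610660 to 73775346, minus strand), and it shares 533 exon bases with Chn1os1 and 220 with Chn1os3 on the opposite strand.

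Inka2, an inhibitor of the kinase PAK4, stood at 3.87, 3.07 and 2.65 CPM in untreated skull and 8.88, 7.31 and 9.46 CPM at 24 h, while the meninges groups overlapped at 19.2 to 22.5 and 17.4 to 19.4 CPM. The difference was 1.58 ± 0.23 (adjusted p = 0.0201; chromosome 3, 105704599 to 105720842, plus strand). Cngb1, a subunit of the cyclic nucleotide-gated channel of rods and pineal cells, went from 2.06, 1.25 and 2.65 CPM to 6.57, 4.09 and 5.52 CPM in skull. In meninges it stood at 61.9 to 74 and 44.6 to 61.1 CPM, a change of −0.39 ± 0.19 that was not called (adjusted p = 0.247), and the difference was 1.85 ± 0.32 (adjusted p = 0.0439; chromosome 8, 95239045 to 95306585, minus strand). It was the 1 called of 27 pineal genes (median difference 0.07, 1 risen and 1 fallen in skull, 0 risen and 4 fallen in meninges). Their sum went from 3026 to 3607 CPM in untreated to 2358 to 2561 CPM in irradiated meninges and stood at 70.7 to 94.1 and 66.7 to 75.9 CPM in skull, and its part in the result was not tested. Nes lost its call in 10 of the 12 fits with 1 library left out, all but those without skull 24 h 2 or skull control 1 (adjusted p up to 0.112). Chn1 lost its call without meninges 24 h 1, 2 or 3, meninges control 1, skull 24 h 1 or skull control 2 (adjusted p up to 0.0687). Inka2 lost its call without meninges 24 h 1 or 3, meninges control 1, skull 24 h 1 or 3 or skull control 2 (adjusted p up to 0.0631). Cngb1 lost its call in 9 of the 12 fits with 1 library left out, all but those without meninges 24 h 2, skull 24 h 2 or skull control 3 (adjusted p up to 0.137).

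**Figure D2:**
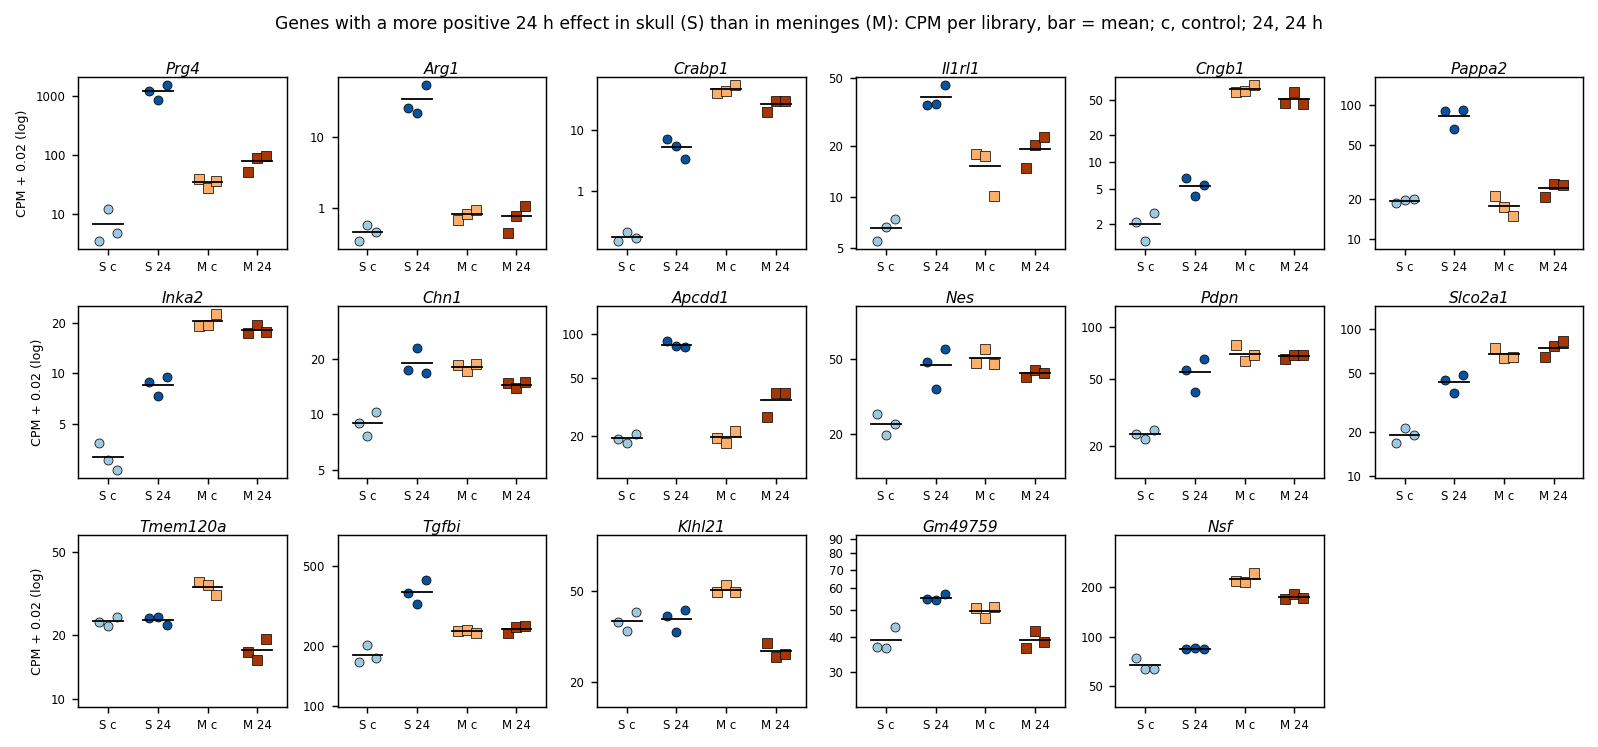
CPM in each library (log axes, 0.02 added) of 17 of the 18 genes with the more positive change in skull, in skull controls (S c), skull at 24 h (S 24), meninges controls (M c) and meninges at 24 h (M 24), with bars at group means. Irradiated skull stands above untreated skull in all panels but Tmem120a and Klhl21, where irradiated meninges stand below untreated meninges.

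For 5 genes the fitted change was the larger in meninges: Nsf, described above, Tmem120a, Klhl21, Ppp1r3b and Lyve1. Tmem120a, a membrane protein of the nuclear envelope linked to fat cell differentiation, stood at 36, 34.6 and 31.1 CPM in untreated and 16.6, 15.2 and 19.2 CPM in irradiated meninges. In skull it stood at 23.2, 22.2 and 24.5 CPM and 24.1, 24.5 and 22.3 CPM. The meninges libraries did not overlap and the skull libraries did. The meninges fell 1.99 times, and the difference was 1.02 ± 0.16 (adjusted p = 0.0209; chromosome 5, 135735485 to 135744448, minus strand). Klhl21, an adaptor that brings substrates to a cullin 3 ubiquitin ligase and whose promoter is shown above, behaved alike. It stood at 49.4, 53.1 and 49.7 CPM in untreated and 29.7, 25.9 and 26.6 CPM in irradiated meninges, against 33.4 to 40.8 and 33.3 to 41.4 CPM in skull (difference 0.93 ± 0.15, adjusted p = 0.03; chromosome 4, 152008803 to 152017680, plus strand). It shares 817 of 3986 exon bases with Gm9768 on the opposite strand. Tmem120a lost its call without meninges 24 h 1 or 2, meninges control 1 or 2, skull 24 h 1 or skull control 2 (adjusted p up to 0.0754). Klhl21 lost its call in 10 of the 12 fits with 1 library left out, all but those without skull 24 h 2 or skull control 3 (adjusted p up to 0.0963).

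Ppp1r3b, which directs protein phosphatase 1 to glycogen and so favours its storage, had the largest called rise in meninges among the 33. It stood at 15.8, 14.3 and 15.7 CPM in untreated and 43.5, 33.7 and 39.3 CPM in irradiated meninges. Skull held 26.9, 32.9 and 21.8 CPM and 30.8, 30 and 27 CPM, which overlapped. The meninges rose 2.54 times and the difference was −1.24 ± 0.20 (adjusted p = 0.0307; chromosome 8, 35375739 to 35388139, plus strand). Untreated skull had the higher level (1.78 times), and at 24 h meninges had it (1.33 times). Ppp1r3b lost its call in 10 of the 12 fits with 1 library left out, all but those without meninges 24 h 2 or skull control 3 (adjusted p up to 0.0984).

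Lyve1, a hyaluronan receptor of lymphatic endothelium and of some resident macrophages, stood at 34.4, 34.9 and 29.3 CPM in untreated and 49.7, 57 and 63.5 CPM in irradiated meninges. Skull held 4.25, 4.76 and 6.26 CPM and 4.14, 3.35 and 3.09 CPM. The meninges rose by 0.79 ± 0.15 (adjusted p = 0.00726), the skull change of −0.52 ± 0.18 was not called (adjusted p = 0.0595), and the difference was −1.31 ± 0.23 (adjusted p = 0.0439; chromosome 7, 110850607 to 110863239, minus strand). It was the 1 called gene in both lists that hold it, 21 border macrophage markers (median difference −0.48, 3 risen and 2 fallen in meninges) and 27 endothelial genes (median 0.12). The border macrophage sum was 2344 to 2848 CPM in untreated and 2726 to 3214 CPM in irradiated meninges, overlapping; its part in the result was not tested. Lyve1 lost its call in 11 of the 12 fits with 1 library left out, all but those without skull control 1 (adjusted p up to 0.125).

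Foxc2, a forkhead factor of mesenchyme, meninges and lymphatic valves, fell in skull, and its irradiated meninges libraries lay above their controls without a call. It stood at 14.4, 16.7 and 18.9 CPM in untreated and 9.79, 7.78 and 11.6 CPM in irradiated skull. Meninges held 45.3, 47.9 and 40.6 CPM and 62.6, 57.9 and 63.2 CPM. Neither tissue's groups overlapped, in opposite directions. The log2 change was −0.78 ± 0.14 in skull and 0.46 ± 0.13 in meninges (adjusted p = 0.0558), a difference of −1.23 ± 0.20 (adjusted p = 0.0261; chromosome 8, 121116171 to 121118895, plus strand). It was the 1 called of 28 meningeal fibroblast genes. Their median change was −0.66 in skull, with 5 fallen and 0 risen, and 0.14 in meninges, with 0 called. Of all 18879 genes tested, 1630 fell in skull. The list summed to 1196 to 1920 CPM in untreated and 1246 to 1498 CPM in irradiated skull, and its part in the result was not tested. Foxc2 lost its call in 7 of the 12 fits with 1 library left out, all but those without meninges 24 h 2, skull 24 h 2 or 3 or skull control 1 or 3 (adjusted p up to 0.084).

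Sphkap, Ntm, Negr1, Celf4 and Atp1b2 fell in skull, and were placed together once their values had been seen. Sphkap, an anchor protein for protein kinase A, stood at 14.2, 11.5 and 17.3 CPM in untreated and 3.95, 3.62 and 2.82 CPM in irradiated skull. Meninges held 89.8, 91.7 and 105 CPM and 103, 99.2 and 89.5 CPM. Skull fell 4.14 times with no overlap, and meninges overlapped and averaged 28.1 times the skull level at 24 h. The difference was −2.07 ± 0.21 (adjusted p = 0.0015; chromosome 1, 83254139 to 83408200, minus strand).

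Ntm and Negr1 are members of one small family, the IgLON adhesion molecules of nerve cell surfaces. Ntm stood at 4.57, 6.7 and 7.07 CPM in untreated skull and 1.16, 1.48 and 1.58 CPM at 24 h, and at 22.1, 22.5 and 29 and 40.1, 32.3 and 26.9 CPM in meninges. Negr1 stood at 10.2, 10.7 and 14.4 CPM in untreated skull and 4.26, 3.29 and 2.56 CPM at 24 h, and at 13.2, 13.2 and 16 and 20.7, 16 and 15.5 CPM in meninges. For both genes the skull groups were apart and the meninges groups overlapped. Ntm fell 4.36 times in skull (difference −2.55 ± 0.30, adjusted p = 0.00506; chromosome 9, 28994750 to 29963141, minus strand). Negr1 fell 3.5 times (difference −2.10 ± 0.30, adjusted p = 0.0171; chromosome 3, 156561794 to 157316445, plus strand).

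Celf4, an RNA-binding protein of neurons, went from 9.08, 11.4 and 14.5 CPM to 4.87, 4.96 and 3.02 CPM in skull and overlapped in meninges at 24.7 to 28.2 and 25.6 to 37.9 CPM (difference −1.71 ± 0.30, adjusted p = 0.0439; chromosome 18, 25477632 to 25754157, minus strand). Atp1b2, the beta 2 subunit of the sodium pump, went from 35.9, 50.8 and 31 CPM to 16.4, 13.3 and 15.8 CPM in skull and overlapped in meninges at 306 to 349.9 and 299.8 to 328 CPM (difference −1.27 ± 0.21, adjusted p = 0.0347; chromosome 11, 69599736 to 69605942, minus strand). On a scale set over all 27 libraries, untreated brain held 484 to 533 CPM of Celf4, 244 to 326 of Negr1, 188 to 206 of Ntm, 206 to 228 of Sphkap and 350.1 to 363 of Atp1b2. On that scale meninges held 307 to 354 CPM of Atp1b2, close to brain, and each of the other genes was higher in brain than in meninges.

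Marker lists of nerve tissue are set beside these genes, and their part in the falls in skull was not tested. Of 25 neuron genes 0 were called for the difference, and in skull 1 rose and 3 fell with a median change of −0.54. Their sum was 276 to 352 CPM in untreated and 279 to 330 CPM in irradiated skull, and none was at 0. Of 19 oligodendrocyte and Schwann cell genes 0 were called and 4 fell in skull (median change −0.88), with sums of 677 to 844 and 668 to 714 CPM. Of 14 astrocyte and ependymal genes 0 were called and 3 fell in skull (median change −0.67), with sums of 758 to 915 and 781 to 817 CPM. Sphkap and Ntm kept their calls whichever library was left out (adjusted p up to 0.0102 and 0.0289). Negr1 lost its call without meninges 24 h 1 or meninges control 1 (adjusted p up to 0.0595). Celf4 lost its call in 11 of the 12 fits with 1 library left out, all but those without skull control 1 (adjusted p up to 0.136). Atp1b2 lost its call in 9 of the 12 fits with 1 library left out, all but those without skull control 1, 2 or 3 (adjusted p up to 0.0963).

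Nfatc2, a transcription factor switched on by calcium and calcineurin, fell in skull to the level of the meninges. It stood at 92.2, 87.4 and 159 CPM in untreated and 23.1, 23.1 and 26.2 CPM in irradiated skull. Meninges held 29.4, 26.6 and 26.8 CPM and 25.4, 23.3 and 29.1 CPM. Untreated skull stood alone, at 4.08 times the level of untreated meninges, and at 24 h both tissues were near one level. The fall in skull was 4.68 times, and the difference −2.13 ± 0.27 (adjusted p = 0.0117; chromosome 2, 168476410 to 168601657, minus strand). Nfatc2 lost its call without meninges 24 h 1 or 3, meninges control 1 or skull 24 h 1 (adjusted p up to 0.053).

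Myh7b, the slow muscle myosin that hosts miR-499, stood at 2.77, 2.44 and 3.68 CPM in untreated and 0.487, 0.537 and 0.46 CPM in irradiated skull. Meninges held 3.16, 3.09 and 4.38 CPM and 4.07, 3.22 and 2.83 CPM and overlapped. Its difference was −2.49 ± 0.43 (adjusted p = 0.0372; chromosome 2, 155611212 to 155634307, plus strand), and 37 of its 6634 exon bases lie over Trpc4ap on the opposite strand. Of 19 skeletal muscle genes 0 were called (median difference 4.82, with 0 calls in either tissue). Their sum was 1520 to 5918 CPM in untreated and 1948 to 4005 CPM in irradiated skull, with no gap between the groups. Meninges control 2, whose muscle sum was 7630 CPM, held 3.09 CPM of Myh7b, close to control 1 (3.16) and below control 3 (4.38). The part of the muscle list in the fall of Myh7b in skull was not tested. Myh7b lost its call with each of the 12 libraries left out (adjusted p up to 0.135).

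A330023F24Rik, the host of miR-29b-2 and miR-29c, stood at 4.64, 5.2 and 4.79 CPM in untreated and 2.43, 2.82 and 2.5 CPM in irradiated skull. Meninges held 29.5, 26 and 27.3 CPM and 39.3, 30.1 and 31.7 CPM, a change of 0.29 ± 0.13 that was not called (adjusted p = 0.196). The skull groups were tight and apart, and the difference was −1.21 ± 0.20 (adjusted p = 0.0303; chromosome 1, 194976375 to 195037904, plus strand). Of its 9354 exon bases, 1079 are shared with Cd46 and 426 with Gm16897 on the opposite strand. A330023F24Rik lost its call in 8 of the 12 fits with 1 library left out, all but those without meninges 24 h 2, skull 24 h 2 or skull control 1 or 3 (adjusted p up to 0.105).

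Asgr1, a subunit of the asialoglycoprotein receptor best known from liver, rested on few reads in skull. It was counted 44 times over the 3 untreated skull libraries and 3 times over the irradiated ones. The ratio of untreated to irradiated skull was 15.2 (exact Clopper-Pearson 95% interval 4.86 to 76.3, counting error only). Meninges held 8.21, 8.08 and 8.01 CPM and 9.5, 9.02 and 10.7 CPM, a small shift without overlap that was not called (adjusted p = 0.68). The fitted difference was −4.04 ± 0.69 (adjusted p = 0.0361; chromosome 11, 70054085 to 70057894, plus strand), and its size depends on the prior count. Asgr1 lost its call in 10 of the 12 fits with 1 library left out, all but those without skull 24 h 2 or skull control 1 (adjusted p up to 0.118).

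Enpep, the aminopeptidase that trims angiotensin and is found on early B cells, stromal and vascular cells, stood at 45.5, 48.6 and 63.1 CPM in untreated and 17.2, 18.6 and 21.1 CPM in irradiated skull. The meninges groups overlapped at 33 to 41.7 and 28.5 to 41.1 CPM, and the difference was −1.43 ± 0.23 (adjusted p = 0.0261; chromosome 3, 129269175 to 129332720, minus strand). Of 23 B cell precursor genes, 8 fell in skull, 4 in meninges and 0 were called for the difference. Over all 18879 genes tested, 1630 fell in skull and 762 in meninges. Their sum was 840 to 958 CPM in untreated and 564 to 746 CPM in irradiated skull. The part of that list in the fall of Enpep was not tested.

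Col25a1, a membrane-bound collagen, stood at 28.8, 24.3 and 23.4 CPM in untreated and 12, 11.9 and 8.8 CPM in irradiated skull. The meninges groups overlapped at 9.49 to 11.3 and 10.9 to 13.2 CPM, and the difference was −1.44 ± 0.22 (adjusted p = 0.0209; chromosome 3, 130131501 to 130599877, plus strand). Crebrf, a brake on the stress factor CREB3, went from 65, 54 and 58.9 CPM to 26.9, 30.3 and 25.1 CPM in skull and overlapped in meninges at 50.8 to 55.6 and 43.3 to 51.7 CPM (difference −0.97 ± 0.15, adjusted p = 0.0209; chromosome 17, 26715650 to 26776635, plus strand). Enpep lost its call in 7 of the 12 fits with 1 library left out, all but those without meninges 24 h 1, meninges control 2, skull 24 h 3 or skull control 1 or 3 (adjusted p up to 0.0938). Col25a1 lost its call in 8 of the 12 fits with 1 library left out, all but those without meninges 24 h 2, skull 24 h 2 or 3 or skull control 3 (adjusted p up to 0.0728). Crebrf lost its call without meninges 24 h 1 or 3, meninges control 1 or 2 or skull 24 h 1 or 3 (adjusted p up to 0.0772).

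**Figure D3:**
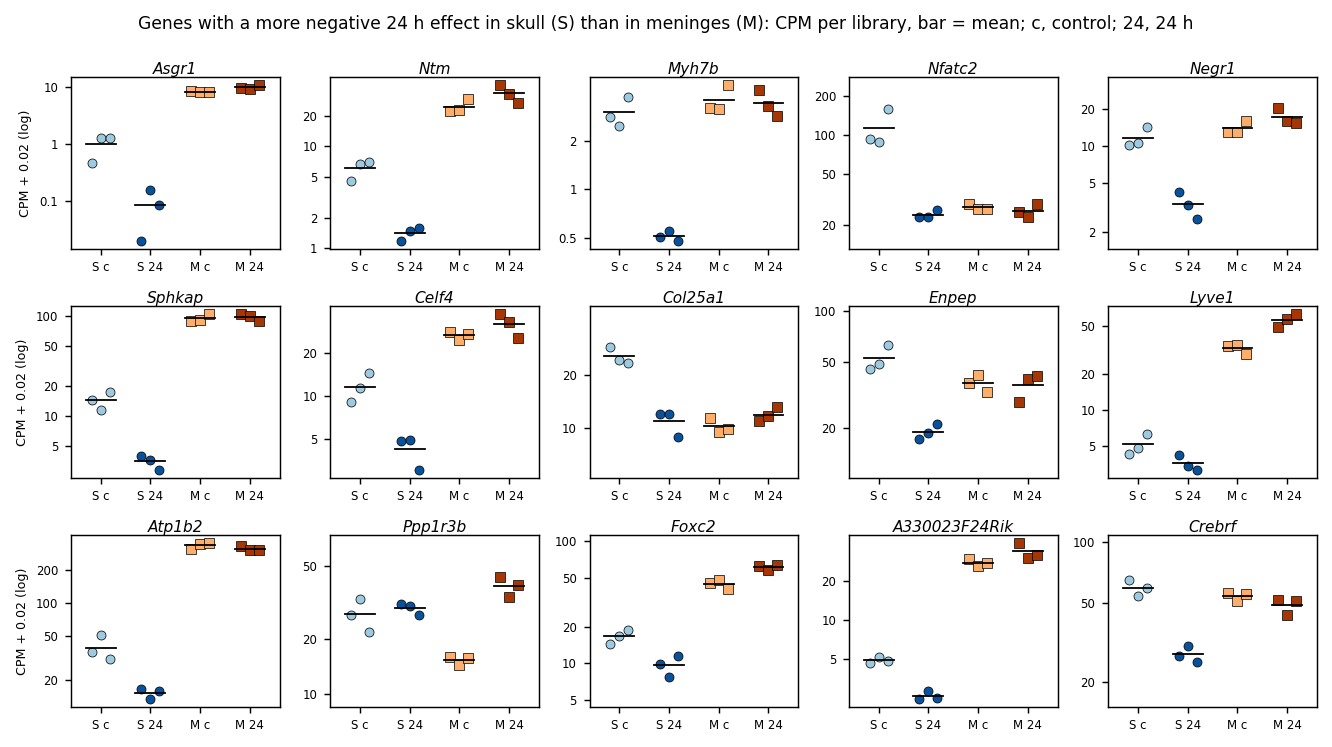
CPM in each library (log axes, 0.02 added) of the 15 genes with the more negative change in skull, grouped as skull controls (S c), skull at 24 h (S 24), meninges controls (M c) and meninges at 24 h (M 24), with bars at group means. Irradiated skull lies below untreated skull in all panels but that of Ppp1r3b, where irradiated meninges lie above their controls.

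The starting levels of the 2 tissues were not alike. Of the 18 genes with the more positive change in skull, 15 were higher in untreated meninges than in untreated skull (adjusted p under 0.05) and 0 the other way. Of the 15 with the more negative change, 8 were higher in untreated meninges and 4 in untreated skull. Over all genes tested, 26% were higher in untreated meninges and 24.7% in untreated skull. The untreated libraries are also one side of the contrast that chose the genes, so these counts are a description.

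Libraries taken 0.5 h after UVB were not used to choose the genes, but share the same controls, so their levels are set side by side, on the scale of all 27 libraries. In skull at 0.5 h, 9 of the 33 genes did not overlap their controls, a share near that of all genes (25.9%). Of the 18 genes with the more positive change in skull, 14 overlapped their controls in skull at 0.5 h, 1 was above and 3 below. Prg4 stood at 10.3, 5.44 and 2.7 CPM in skull at 0.5 h, against 3.42 to 11.8 in controls and 903 to 1618 at 24 h. Arg1 stood at 0.534, 0.328 and 0.821 CPM against 0.329 to 0.562 in controls. The early libraries of both genes thus lay among or beside the controls. Tgfbi was below, at 148, 141 and 165 CPM against 170.0 to 202. The 1 above was Il1rl1, at 7.62, 8.98 and 12.7 CPM against 5.6 to 7.54.

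Of the 15 genes with the more negative change, 10 overlapped their controls in skull at 0.5 h and 5 were below. Nfatc2 stood at 25.8, 22.4 and 23 CPM at 0.5 h, which was already its 24 h level of 23.5 to 26.8 CPM, against 87 to 161 in controls. Myh7b stood at 0.935, 1.18 and 1.58 CPM, between its controls (2.43 to 3.73) and its 24 h libraries (0.47 to 0.546). Sphkap overlapped its controls at 0.5 h, at 24.8, 21.4 and 14.3 CPM against 11.4 to 17.5, and stood at 2.89 to 4.04 CPM at 24 h.

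In meninges at 0.5 h, 12 of the 33 genes did not overlap their controls (20.5% of all genes). Of the 18 with the more positive change in skull, 1 was above its controls and 5 below, and of the 15 with the more negative change, 5 were above and 1 below. Tmem120a stood at 18.5, 19 and 19.7 CPM, near its 24 h level of 15.3 to 19.1, against 31.5 to 36.1 in controls. Klhl21 stood at 27.5, 32.6 and 33.8 CPM against 49.6 to 52.7. Both had left their controls by 0.5 h. Tmem120a was then below its controls in skull as well (18.1, 17.8 and 15.8 CPM against 22.1 to 24.8), and back among them at 24 h (22.8 to 24.9). Ppp1r3b stood at 27.8, 26.5 and 23 CPM, between its controls (14.2 to 15.9) and its 24 h libraries (34 to 43.7). Foxc2 was higher at 0.5 h, at 87.3, 96.6 and 78.8 CPM, than in any control (41 to 47.6) or 24 h library (58.4 to 63). Lyve1 overlapped its controls at 0.5 h, at 33.8, 31.4 and 33.4 CPM.

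Brain libraries at 24 h, also outside the rule, did not overlap their controls for 7 of the 33 genes (20.8% of all genes). A330023F24Rik, which fell in skull, stood at 97.5 to 116 CPM in irradiated brain against 54 to 63.9 in untreated brain. Nes, which rose in skull, stood at 12.6 to 14.5 CPM against 19.9 to 27.1. Prg4 stood at 6.12 to 8.11 CPM against 3.49 to 5.49. These changes in brain were not tested here.

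**Figure D4:**
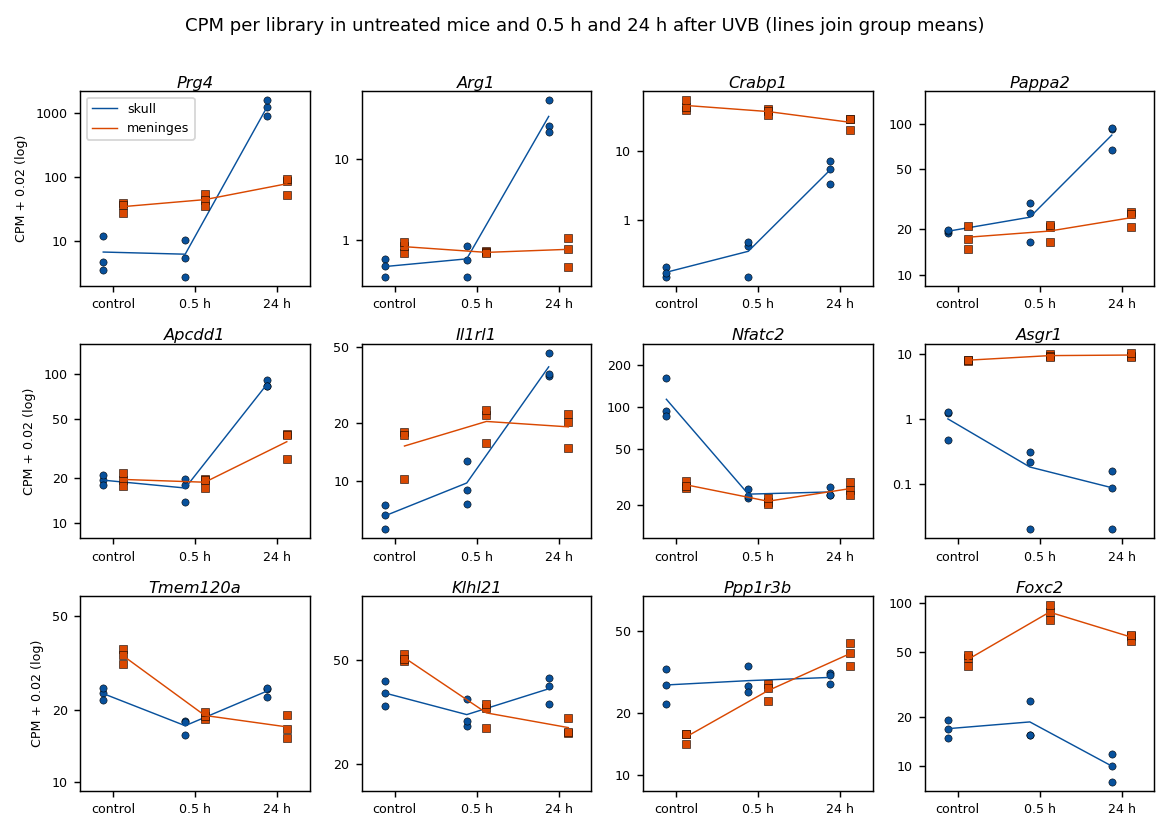
CPM (log axes, 0.02 added, scaled over all 27 libraries) of 12 of the genes in untreated tissue and at 0.5 h and 24 h after UVB, with points for libraries and lines through group means, skull in blue and meninges in orange. Prg4, Arg1 and Apcdd1 in skull leave their controls at 24 h, while Nfatc2 in skull and Tmem120a in meninges are already away from them at 0.5 h.

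Of 56 gene lists drawn up for these tissues, 9 held a called gene, 1 each, and 47 held none. With 0.175% of all genes called, a list of this size with 0 called members is near the background, and the counts are given as a description. Immediate early genes, the first transcripts after a stimulus, were 0 of 36, with median changes of −1.07 in skull and −0.93 in meninges. Glucocorticoid targets were 0 of 25, with −1.54 and −1.48. FoxO and insulin genes were 0 of 24, with −0.55 in each. Clock genes were 0 of 20 (median difference 0.15). Cholesterol and fatty acid synthesis genes were 0 of 30, with 18 risen in skull, 1 in meninges and a median difference of 0.47. Called in either direction over all 18879 genes were 3246 in skull (17.2%, 1630 of them fallen) and 1385 in meninges (7.34%, 762 fallen). A gene called in 1 tissue only is not shown to differ, and a missing call does not show that the changes were equal.

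The threshold fell in a dense part of the ranking. Just inside it were Slco2a1 (adjusted p = 0.0461) and Lyve1, Cngb1 and Celf4 (0.0439 each). Just outside were Gm15684 (difference 2.81) and Lurap1l (1.78), with an adjusted p of 0.0513 each, then Rpgrip1 (−0.90) and Ank (0.60), with 0.0599 each, and Muc13 (2.86) and Lgi2 (1.63), with 0.065 each.

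The size of the list depended on which libraries were in the fit. Leaving out 1 library gave from 8 called genes (without meninges control 1) to 46 (without skull control 3); it gave 10 without meninges 24 h 1, 11 without meninges 24 h 3 or skull 24 h 1, 15 without skull control 2, 19 without meninges control 2 and 20 without skull 24 h 3. Prg4, Arg1, Crabp1, Pappa2, Sphkap and Ntm were called in all 12 of these fits, and Crabp1, Sphkap and Ntm also under every other alternative tried. Arg1, Cngb1, A330023F24Rik, Lyve1, Celf4, Myh7b and Asgr1 lost their calls in limma-voom, and Cngb1, Nes, Slco2a1, Lyve1 and Celf4 without edgeR's robust option. A fit of all 27 libraries lost Cngb1, Pdpn, Slco2a1, Tgfbi, Foxc2 and Ppp1r3b, and scaling within each tissue lost Cngb1. No gene of the 33 changed the sign of its difference with a library left out.

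**Figure D5:**
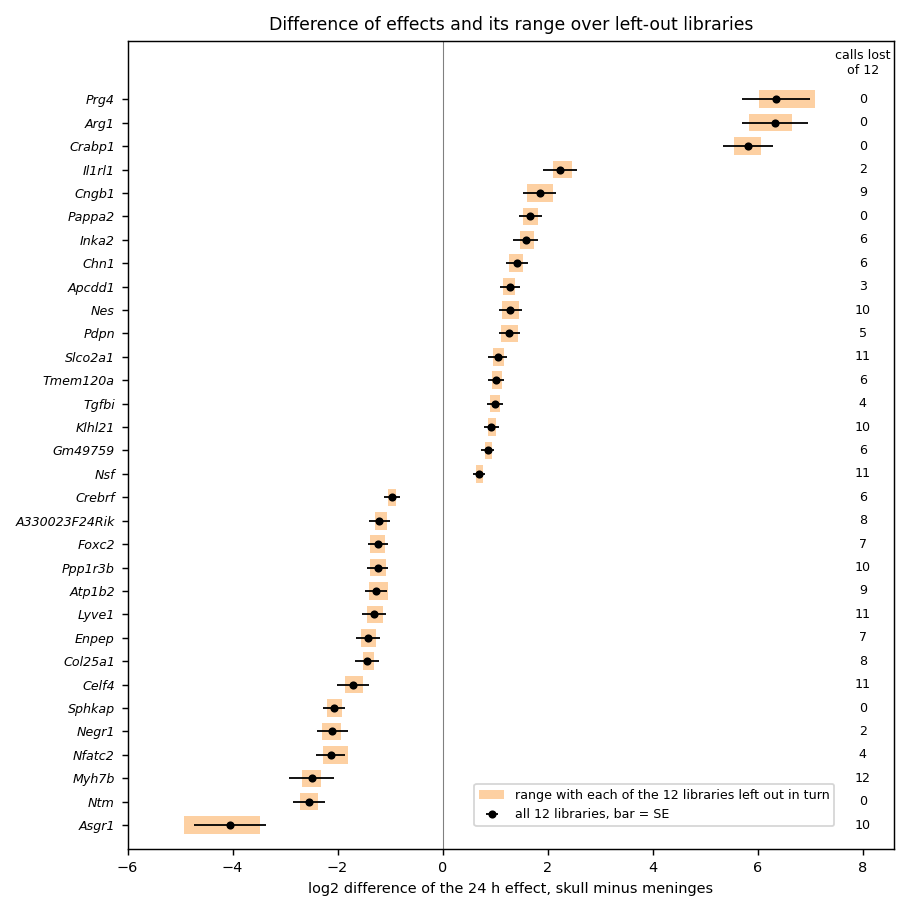
Log2 difference of the 24 h change, skull minus meninges, of 32 of the 33 genes (points, bars are standard errors), with the range over fits that each leave out 1 of the 12 libraries (orange) and, at the right, in how many of them the call was lost. The 6 genes shown with 0 losses are Prg4, Arg1, Crabp1, Pappa2, Sphkap and Ntm, and Myh7b lost its call in all 12.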

How the data were processed

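Messenger RNA counts per gene symbol, as deposited by the authors, were used for 12 of 27 libraries, with 0 columns left unmapped; 15.5 M to 18.2 M counts per library set the precision. HISAT2 2.1.0 and the mm10 build are named in the submitters' processing notes; how reads were assigned to genes, with which annotation and on which strand, is not given in the sources used here. One group-means model of the 4 groups was fitted with edgeR 4.0.16 in R 4.3.3 (TMM scaling, filterByExpr with minimum count 10 and total 15, robust quasi-likelihood F test), and p-values were adjusted by Benjamini-Hochberg over 18879 of 37095 genes, with a threshold of 0.05. Each SE is the absolute log2 change over the square root of F. Levels are CPM on TMM-scaled totals. The fit was also run on simulated data, and the outcome of that run is not given here.

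Genes were named as the 15 largest differences in each direction among called genes with a mean of at least 1 CPM and an established symbol, plus called members of the lists. Klhl21, Nsf, Gm49759 and A330023F24Rik lie outside that rule and were chosen once their values had been seen. The comparison and the gene lists were chosen with earlier results of these data known. The result of 1 called gene is not reported here. Coordinates and exon overlaps are from GENCODE M21 on GRCm38, promoters and microRNAs from RefSeq. Alternatives were RLE scaling, scaling within each tissue, no filter, no robust option, no haemoglobin or mitochondrial genes, DESeq2 1.42.0, limma-voom (limma 3.58.1), a fit of all 27 libraries, replicate blocks and each library left out.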

Additional observations from a re-analysis of the deposited data

Results flagged for a closer look

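The 32 genes below stand here because the effect of UVB at 24 h differed between skull and meninges in the test of the difference itself. Values are log2 differences, skull minus meninges, from the edgeR quasi-likelihood test. Groups of 3 libraries are too small for a check of single outlying samples. Called with each library left out were Prg4 (6.35), Arg1 (6.33), Crabp1 (5.81), Pappa2 (1.67), Sphkap (−2.07) and Ntm (−2.55).

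Calls that ended with 2 to 6 of the 12 libraries left out in turn were those of Il1rl1 (2.24), Inka2 (1.58), Chn1 (1.42), Apcdd1 (1.29), Pdpn (1.27), Tmem120a (1.02), Tgfbi (1.0), Gm49759 (0.86), Crebrf (−0.97), Negr1 (−2.10) and Nfatc2 (−2.13).

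Calls that ended with 7 or more libraries left out in turn were those of Cngb1 (1.85), Nes (1.29), Slco2a1 (1.05), Klhl21 (0.93), Nsf (0.69), A330023F24Rik (−1.21), Foxc2 (−1.23), Ppp1r3b (−1.24), Atp1b2 (−1.27), Lyve1 (−1.31), Enpep (−1.43), Col25a1 (−1.44), Celf4 (−1.71), Myh7b (−2.49) and Asgr1 (−4.04).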

How the results depend on the processing

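The count of 33 genes whose change differed was 33 with RLE scaling, with scaling within each tissue (32 of the genes shared), without haemoglobin and mitochondrial genes and with limma-voom (26 shared), and 31 without the robust option. It was 77 without a filter on low counts, 212 with DESeq2 (all 33 shared) and 136 in a fit of all 27 libraries (27 shared); the cause was not tested. With 1 library left out it ran from 8 to 46. The skull count of 3246 stayed within 1.5 times under the other alternatives and ran from 1948 (without skull 24 h 1) to 3316 with 1 library left out, with 2026 without skull 24 h 3. The meninges count of 1385 was 2191 with DESeq2 and ran from 619 (without meninges 24 h 2) to 1428, with 820 without meninges 24 h 3, 776 without meninges control 1 and 709 without meninges control 2. No difference changed sign.

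The labels do not say whether libraries with the same replicate number come from the same mouse. Same-numbered skull and meninges deviated together with correlations of −0.08 to 0.12, and control and 24 h libraries of the same tissue with −0.38 to 0.04. Differently numbered libraries gave −0.12 to 0.19 and −0.24 to 0.39. These ranges overlap, so the correlations cannot settle whether the numbers mark pairs. With the replicate block the count was 6, and with a block that pairs the tissues 10. Of the 33 genes, 6 and 7 were called in these fits. Among the genes described, Arg1, Crabp1, Sphkap, Nfatc2 and Ntm kept their calls in both. Negr1 kept its call only with the block that pairs the tissues, and the others, Prg4 and Pappa2 among them, lost theirs in both.

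Depth limits Asgr1, with 3 counts in irradiated skull, and Crabp1, with 7 in untreated skull. Counts were also low for Arg1, with 20 in untreated skull, and Myh7b, with 23 in irradiated skull.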
